A study of Mus musculus with 2 samples.

Results

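The miR-322 to miR-450 cluster is a run of 7 microRNA (miRNA) hairpin genes on the mouse X chromosome, and its content was measured in the adrenal glands of newborn mice. The members are Mir322, Mir503, Mir351, Mir542, Mir450-2, Mir450-1 and Mir450b, given here in the order in which they are transcribed. They were chosen by gene symbol, not by any measured value, and are 7 of the 1973 miRNA gene rows in the deposited tables. The series has a single group of 2 libraries, from B6NCrl mice at postnatal day 0, with no treatment, transgene or second tissue. Each library came from the 2 adrenals of 1 pup, from total RNA restricted to fragments below 30 nucleotides, and the pups are called pup 1 and pup 2 after the labels. Both were born from the same pregnancy, their sex was not collected, and the labels give both the same donor identifier while naming separate pups. If that identifier means 1 animal, every spread given here is technical.

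A miRNA gene is transcribed as a long primary transcript, from which hairpins are cut and then trimmed to mature miRNAs of the 5p and 3p arm. A mature miRNA finds its target transcripts mainly through its seed, bases 2 to 8, so miRNAs with the same seed can share targets. miR-322 is the mouse counterpart of human miR-424, and miR-322 and miR-503 are known for repressing cyclins and other drivers of cell division, for example when muscle precursors leave the cell cycle. Several hairpins that lie close together on the same strand can be cut from 1 primary transcript, and such a group is called a polycistron.

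The mature sequences show how the members relate to each other and to miRNAs encoded elsewhere. The RefSeq table on GRCm38.p6 gave 14 mature records for the 7 members, with 13 distinct sequences and 12 distinct seeds. All sequences are printed 5′ to 3′ with the seed in capitals. The first set shows the 5p miRNAs of Mir322 and Mir503 beside 2 miRNAs of the miR-15 and miR-16 family:
miR-322-5p: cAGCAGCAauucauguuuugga
miR-503-5p: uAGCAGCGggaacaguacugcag
miR-15a-5p: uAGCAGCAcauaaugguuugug
miR-16-5p: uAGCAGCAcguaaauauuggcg
The seed of miR-322-5p is identical to that of miR-15a-5p and miR-16-5p. miR-503-5p shares 6 of the 7 seed bases with miR-322-5p, and from base 1 it first differs from miR-16-5p at position 8, the last base of the seed. No other gene in the RefSeq table has the 7-base seed of miR-503-5p.

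The second set places miR-351-5p beside the miR-125 miRNAs, which have the same seed:
miR-351-5p: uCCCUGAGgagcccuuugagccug
miR-125a-5p: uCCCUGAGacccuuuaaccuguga
miR-125b-5p: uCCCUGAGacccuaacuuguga
Aligned from base 1 without gaps, miR-351-5p first differs from both at position 9, directly after the seed, and matches miR-125a-5p at 10 of 24 positions. The miRNAs of Mir542 have seeds that no other gene with a count in both pups shares:
miR-542-5p: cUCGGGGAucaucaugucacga
miR-542-3p: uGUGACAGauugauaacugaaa

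The last set holds the miRNAs of the 3 Mir450 hairpins, and it bears on how their reads could be counted:
miR-450a-5p: uUUUGCGAuguguuccuaauau
miR-450b-5p: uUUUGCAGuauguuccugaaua
miR-450a-1-3p: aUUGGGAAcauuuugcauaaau
miR-450a-2-3p: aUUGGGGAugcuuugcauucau
miR-450b-3p: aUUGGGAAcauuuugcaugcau
miR-450a-5p is encoded identically by Mir450-1 and Mir450-2, whose hairpins share a stretch of 25 bases. A read that lies within that stretch matches both genes, and the tables keep multi-mapped reads apart from the gene rows. The counts of Mir450-1 and Mir450-2 therefore leave such reads out and are uncertain. miR-450a-1-3p and miR-450b-3p are identical over their first 18 bases and at 20 of 22 positions, so short reads of these could not be told apart either. The first 18 bases of the miRNAs of Mir322, Mir503, Mir351 and Mir542 occur in no other miRNA gene of the RefSeq table.

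On mm10 the cluster spans 6353 bp of the minus strand, and all 7 identifiers matched GENCODE M21 with their version. Mir322 (ENSMUSG00000065418.1) lies at chrX:53054255-53054349, Mir503 (ENSMUSG00000076122.1) at chrX:53053984-53054054 and Mir351 (ENSMUSG00000065503.1) at chrX:53053255-53053353. Mir542 (ENSMUSG00000076140.1) lies at chrX:53049403-53049487, after a gap of 3767 bp. Mir450-2 (ENSMUSG00000076399.1, chrX:53048299-53048367), Mir450-1 (ENSMUSG00000065486.1, chrX:53048154-53048244) and Mir450b (ENSMUSG00000076050.1, chrX:53047997-53048078) are separated by only 54 and 75 bp. GENCODE M21 annotates no host transcript over any member, but its gene Gm28730 (chrX:53051194-53053159, minus strand) lies between Mir351 and Mir542. In RefSeq, the noncoding RNA gene C430049B03Rik (chrX:53053112-53057190) spans Mir322, Mir503 and Mir351, whereas GENCODE M21 ends this gene at chrX:53055046, which is 696 bp upstream of Mir322. No other miRNA gene of the tables lies within 100 kb.

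The cluster was among the more abundant miRNA loci of the newborn adrenal and was carried by Mir322 and Mir351. The 7 genes summed to 35821 reads for pup 1 and 129454 reads for pup 2. Of all miRNA gene counts this was 3.17% (exact Clopper-Pearson 95% interval 3.13 to 3.20) for pup 1 and 3.89% (3.87 to 3.91) for pup 2, or 3.53% ± 0.513 (SD, n = 2). Levels are given as CPM, a gene's count per 1000000 same-strand gene counts of its library, whose depth was 1131762 such counts for pup 1 and 3327743 for pup 2. All 7 members had a count in both pups, against 23% of the 1973 gene rows, and all 7 reached 10 CPM in both pups, against 13.9% of the rows. With all reads of each library as the denominator, 5 members reached 10 CPM in both pups. On the main scale, 5 reached 100 CPM in both. A miRNA read spans a whole mature miRNA, so CPM was not divided by gene length. Levels of different miRNAs are compared here as read counts, and whether library preparation captured each miRNA equally well was not tested. In a whole gland, fewer cells that make a miRNA and less miRNA per cell cannot be told apart. The tables record no molecular identifiers, so amplified copies count as reads and all intervals cover counting error only.

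**Figure D1:**
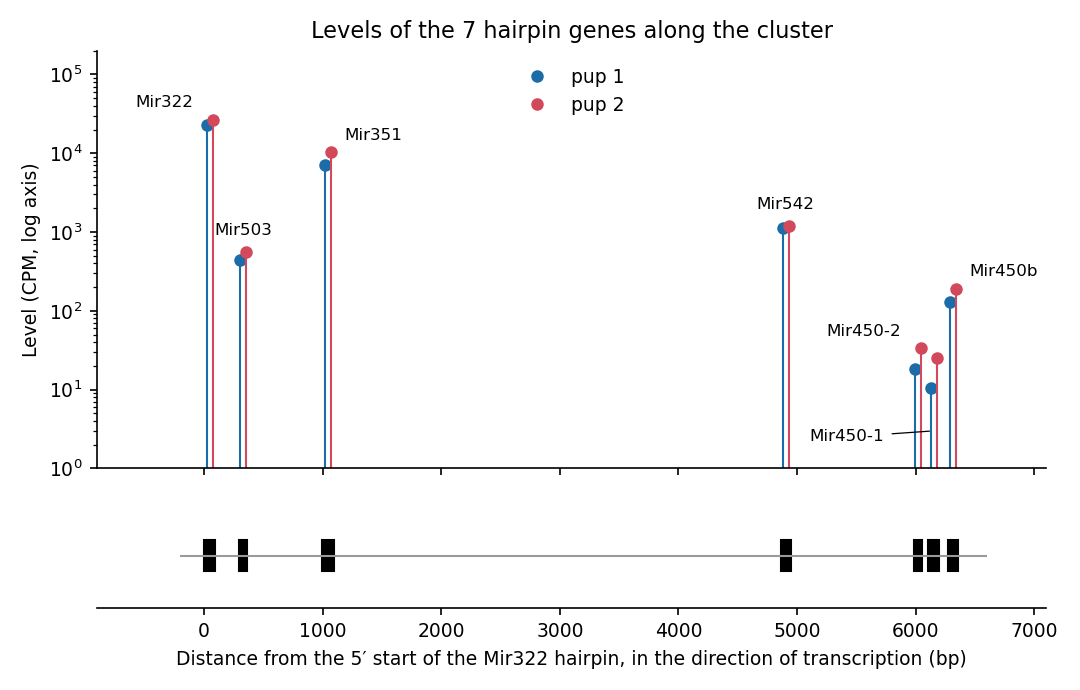
Level of each member in CPM (log axis) against its distance in bp from the 5′ start of the Mir322 hairpin, with the hairpins drawn to scale as black boxes below. Blue and red points are pup 1 and pup 2, set 50 bp apart so that both can be seen, and the levels run from 24717 CPM on average for Mir322 down to 17.9 CPM for Mir450-1.

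Mir322, the first hairpin, was the leading member, with 22882 CPM in pup 1 and 26551 CPM in pup 2. Its mean of 24717 ± 2595 CPM (SD, n = 2) placed it 14th among all miRNA genes by mean level of uniquely placed reads. Mir351, the third hairpin, followed with 7050.1 CPM in pup 1 and 10349 CPM in pup 2, a mean of 8699 ± 2333 CPM and rank 29. Neither gene's pups overlapped the other's, and Mir322 was 3.25 times as high as Mir351 in pup 1 and 2.57 times in pup 2.

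Mir503 lies between these genes, 200 bp after Mir322 and 630 bp before Mir351, but its level was far below both. It had 448 CPM in pup 1 and 557 CPM in pup 2, a mean of 502 ± 76.8 CPM, which was 49.2 times lower than that of Mir322. Mir542, like Mir322, Mir503 and Mir351, shares no 7-base seed with another member. Mir542 had 1112 CPM in pup 1 and 1196 CPM in pup 2, with a mean of 1154 ± 59.1 CPM. By read counts, the levels thus did not decline steadily along the cluster, since Mir351 and Mir542 both exceeded Mir503, which precedes them.

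The Mir450 genes at the far end were the least abundant. Mir450b, the last hairpin, had 129 CPM in pup 1 and 190.2 CPM in pup 2, with a mean of 159.6 ± 43.3 CPM. Mir450-2 had 18.6 CPM in pup 1 and 33.4 CPM in pup 2, from 21 and 111 counts. Mir450-1 had 10.6 CPM in pup 1 and 25.2 CPM in pup 2, from 12 and 84 counts. The counting interval of Mir450-1 in pup 1 ran from 5.48 to 18.5 CPM and so includes the detection limit of 10 CPM.

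From the highest to the lowest, the order was Mir322, Mir351, Mir542, Mir503, Mir450b, Mir450-2 and Mir450-1, and the means spanned 1379-fold. The pups' ranges of neighbours in this order did not overlap, except for Mir450-2 and Mir450-1, whose ranges overlapped. The order was the same in both pups and also when counts were divided by the length of the hairpin gene. The place of Mir450-2 and Mir450-1 holds for uniquely placed reads only, because miR-450a-5p reads that match both genes are not in their counts.

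The make-up of the cluster differed somewhat between the pups. The share of Mir322 in the cluster's counts was 72.3% (95% interval 71.8 to 72.8) for pup 1 and 68.3% (68.0 to 68.5) for pup 2, a mean of 70.3% ± 2.86. Mir351 gave 22.3% in pup 1 (21.8 to 22.7) and 26.6% in pup 2 (26.4 to 26.8). Mir542 gave 3.51% and 3.07%, Mir503 gave 1.42% and 1.43%, and Mir450b gave 0.408% and 0.489%. The shares of Mir322 and Mir351 each differed by more than their counting intervals, and because these genes make up most of the sum, a larger share of one entails a smaller share of the other. The share of Mir503 differed by less than its intervals.

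Pup 2 had the higher level for each of the 7 members, although Mir542 was lower in pup 2 under upper-quartile scaling (log2 ratio -0.06). The sum over the cluster was 31651 CPM for pup 1 and 38901 CPM for pup 2, a ratio of 1.23 (exact conditional 95% interval 1.21 to 1.24). Without Mir322 the ratio was 1.41 (1.38 to 1.44). With 1 library per pup there is no p-value, and the difference cannot be separated from the preparation of the libraries. Among the 284 genes whose mean level reached 10 CPM, 58.1% were higher in pup 2, or 41.9% under upper-quartile scaling, so the direction itself is common. The median log2 ratio of the members was 0.55, beside 0.08 over the 284 genes. TMM scaling moved all log2 ratios by 0.11 and upper-quartile scaling by -0.17. A scaling moves members and other genes alike, so the gap between the members' median and that of all genes could hardly change. The gap was 0.45 to 0.48 under the 5 other scalings, denominators and columns tried, which is therefore no check of it.

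**Figure D2:**
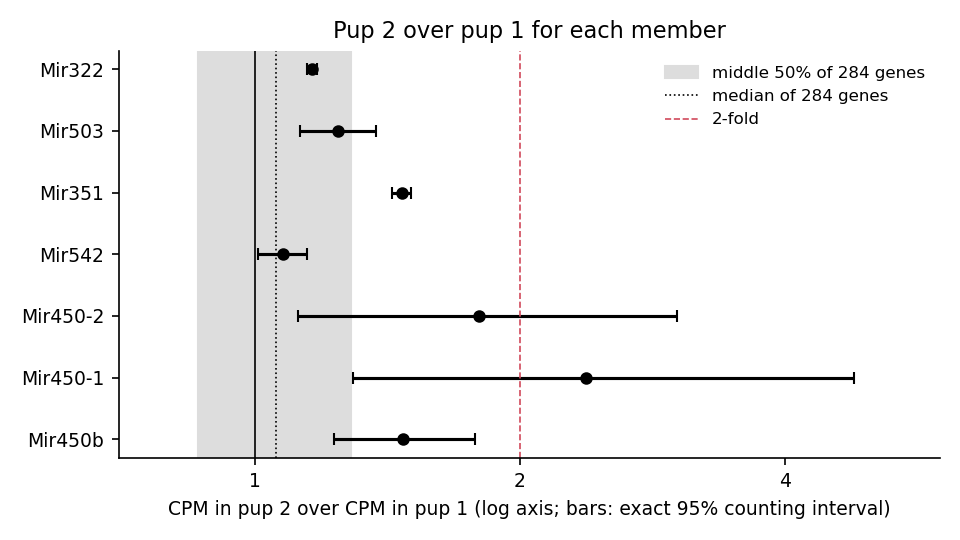
Ratio of CPM in pup 2 to pup 1 for each member (log axis), with bars for the exact 95% counting interval. The grey band is the middle 50% of the 284 genes and the dotted line their median, and all 7 intervals lie above 1, although under upper-quartile scaling Mir542 falls below 1 and the interval of Mir450-2 also includes 1.

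The size of the pup difference varied among members and was largest for Mir450-1 and Mir450-2, which had the fewest counts. Mir542 had a ratio of 1.08 (1.01 to 1.15), Mir322 of 1.16 (1.14 to 1.18) and Mir503 of 1.24 (1.13 to 1.37). Mir351 had a ratio of 1.47 (1.43 to 1.50), and its interval does not overlap those of Mir322, Mir503 and Mir542. Mir450b had 1.47 (1.23 to 1.78), Mir450-2 had 1.80 (1.12 to 3.02) and Mir450-1 had 2.38 (1.29 to 4.79). All 7 counting intervals were wholly above 1, as were those of 38.7% of the 284 genes. Under upper-quartile scaling this held for 5 members, since the intervals of Mir542 (0.898 to 1.02) and Mir450-2 (0.997 to 2.69) then included 1.

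Only Mir450-1 passed 2-fold, with a log2 ratio of 1.18 at a prior of 1 CPM, where 3.52% of the 284 genes passed 2-fold with the higher level in pup 2 and 5.28% passed it in either direction. No member was 2-fold lower in pup 2, as 1.76% of the genes were. Its interval of the ratio reaches below 2, and with a prior of 5 CPM its log2 ratio was 0.95. Of the 284 genes, 7 had a log2 ratio above that of Mir450-1, while 106 exceeded Mir322 and 137 exceeded Mir542.

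Seed partners outside the cluster set the level of the cluster's seeds in context. The RefSeq table held 10 other genes with the seed of miR-322-5p, of which 9 were in the tables and 5 had a count. Gene rows do not separate the 5p and 3p arms, so these comparisons are of genes, not of mature miRNAs. Of the counts of these genes and its own, Mir322 gave 81.5% (81.1 to 82.0) for pup 1 and 79.6% (79.3 to 79.8) for pup 2, a mean of 80.6% ± 1.38.

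The largest partner of Mir322 was Mir15a, a cell-cycle-linked miRNA gene on chromosome 14, with 2097 CPM in pup 1 and 2586 CPM in pup 2. Mir16-1, its neighbour in the same cluster, had 1482 and 2135 CPM, Mir15b on chromosome 3 had 863 and 976 CPM, and Mir195a on chromosome 11 had 497 and 680.3 CPM. The fifth, Mir16-2, was lower than these. No partner came within the range of Mir322. Mir16-1 and Mir16-2 encode an identical miR-16-5p, so its multi-mapped reads are in neither count and the share of Mir322 is an upper estimate. Mir497, which also has this seed, was not analysed here. The 5 partners with a count were, like Mir322, higher in pup 2 under every scaling tried, with a summed ratio of 1.31 (1.28 to 1.35). Of all genes whose mean reached 10 CPM, 58.1% were higher in pup 2, or from 41.9% to 65.8% over the scalings tried. The 5 include neighbouring genes on chromosomes 14 and 3, so they are not 5 separate loci.

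**Figure D3:**
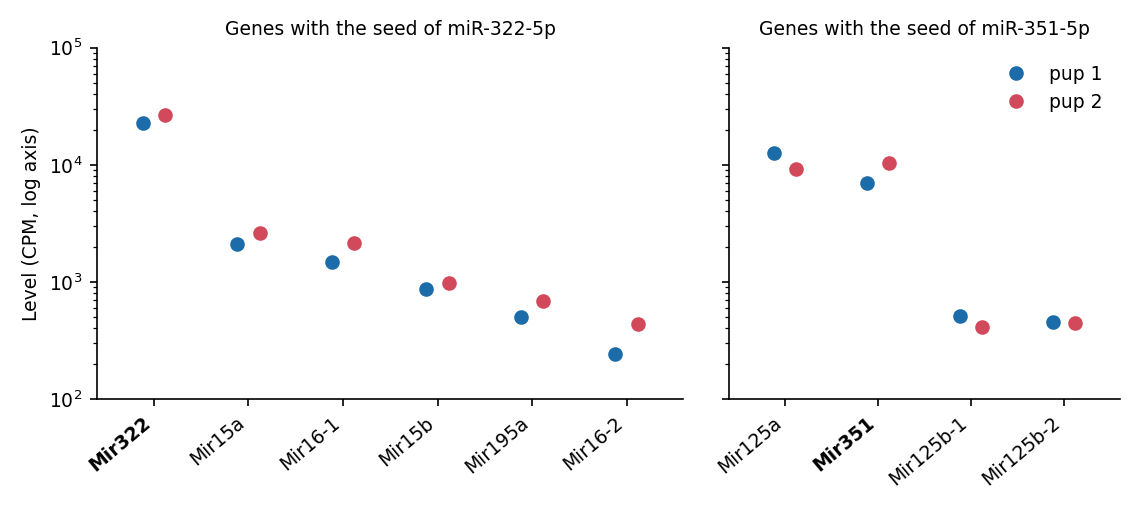
Levels in CPM (log axis) of the genes with a count whose mature miRNA has the seed of miR-322-5p (left) or miR-351-5p (right), with members in bold and pup 1 and pup 2 in blue and red. Mir322 stands above all its partners in both pups, while Mir125a and Mir351 change places between the pups.

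For the seed of miR-351-5p the picture was different, because Mir125a was as abundant as Mir351. Mir125a, whose miRNA is a vertebrate counterpart of the worm miRNA lin-4, had 12503 CPM in pup 1 and 9276 CPM in pup 2, against 7050.1 and 10349 CPM for Mir351. Their ranges overlapped, with Mir125a the higher in pup 1 and Mir351 the higher in pup 2. Mir125b-1 had 509.8 and 412 CPM, and it shares an identical miR-125b-5p with Mir125b-2, so both leave out multi-mapped reads. Mir351 gave 34.4% of the counts of this seed group in pup 1 (33.8 to 35.0) and 50.5% in pup 2 (50.2 to 50.9). The partners had a summed ratio of pup 2 to pup 1 of 0.752 (0.738 to 0.767), opposite in direction to Mir351 under every scaling tried. Most of this sum was Mir125a, while Mir125b-2 had a ratio of 0.979 (0.885 to 1.08). On the CPM scale all 3 partners with a count were lower in pup 2, as were 119 of the 284 genes. With TMM, DESeq2 or all reads, 1 of the 3 partners was higher. The whole group, Mir351 included, had 20517 CPM in pup 1 and 20481 CPM in pup 2, a ratio of 0.998 (0.983 to 1.01) on the CPM scale, which TMM scaling moves, like all ratios, by 0.11 on the log2 scale. This sum was compared after its values were seen. The share of Mir351 is an upper estimate and the group ratio is incomplete, since the uncounted reads of miR-125b-5p belong to this group.

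Mir542, Mir503 and the Mir450 genes had no abundant seed partner. The sole partner with a count was Mir6966, which shares the seed of miR-542-5p and had 3 counts in pup 1 and 0 in pup 2. The seed of miR-450a-1-3p and miR-450b-3p is also that of Mir6352, which had 0 counts in both pups, and a count of 0 allows a level of at most 2.65 CPM for pup 1 and 0.902 CPM for pup 2 (3 counts of the total).

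On the X chromosome, Mir322 was the most abundant of the 120 miRNA genes of the tables by uniquely placed reads. Only Mir98 and Mir652 lay between it and Mir351 by mean level. Genes whose reads also match other genes lose multi-mapped reads, so they can stand too low in this ranking and in the sums below. The 7 members together took more counts than the other 113 X-linked genes in pup 2 (38901 against 30494 CPM) and fewer in pup 1 (31651 against 36051 CPM). The other X-linked genes had a summed ratio of pup 2 to pup 1 of 0.846 (0.836 to 0.856), with 14 of the 28 that reached a mean of 10 CPM higher in pup 2 and 14 lower, or 9 higher and 19 lower under upper-quartile scaling. Their median log2 ratio was 0.03, beside 0.55 for the members and 0.21 for Mir322 alone. Both medians count each gene alike, whatever its level.

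**Figure D4:**
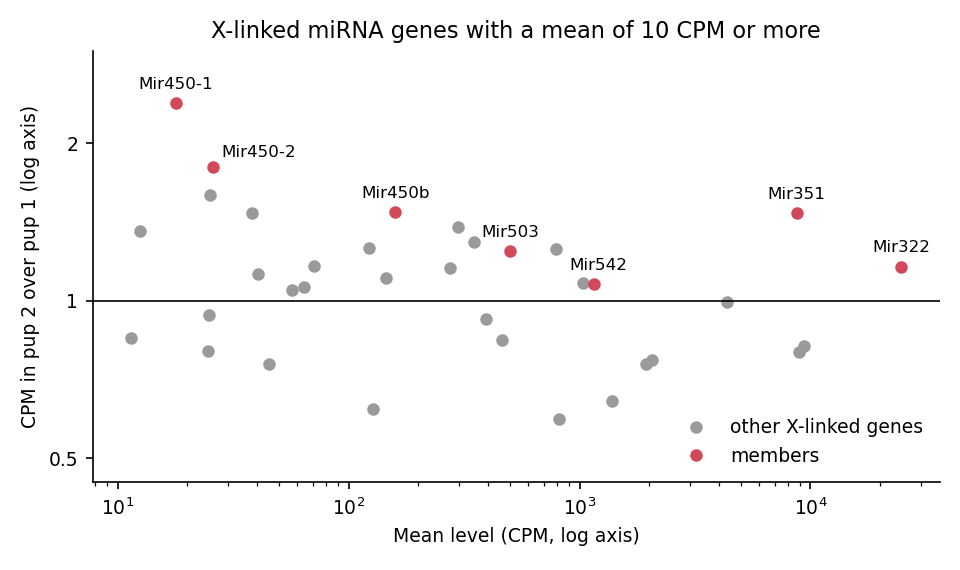
Ratio of CPM in pup 2 to pup 1 (log axis) against mean level in CPM (log axis) for the 35 X-linked miRNA genes whose mean reached 10 CPM. The 7 members (red) lie above 1, Mir542 only under scalings other than upper quartile, and of the 28 other genes (grey) 14 lie above 1, or 9 under upper-quartile scaling.

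The nearest other miRNA cluster on the chromosome, on the same strand and starting 305429 bp downstream, is the miR-106a to miR-363 cluster, a paralogue of the growth-linked cluster of Mir17. The sum of its 6 genes was 187 CPM for pup 1 and 221 CPM for pup 2, with a ratio of 1.18 (1.01 to 1.38). The most abundant was Mir92-2 with 65.4 CPM in pup 1 and 76.3 CPM in pup 2, then Mir363 with 61.9 and 65.8 CPM. Mir19b-2 had 0 and 4 counts. The sum and these levels hold for uniquely placed reads only. Multi-mapped reads are in none of these counts, and matches of these genes to others were not examined, so low values need not mean low abundance.

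Compared with other miRNA clusters, this locus had a high total and, among genes whose mean reached 10 CPM, a wide spread of levels. Of 15 same-strand groups with at least 4 genes no more than 10 kb apart, it had the second-highest summed mean level, 35276 CPM, after the group from Mir379 to Mir3072 on chromosome 12 with 69988 CPM from 34 genes. These totals hold for uniquely placed reads only, and groups of near-identical hairpins can lose multi-mapped reads. The group from Mir770 to Mir432 came next with 29614 CPM, then Mir17 to Mir92-1 with 6139 CPM and the X-linked group from Mir500 to Mir532 with 3041 CPM. Among the 8 groups in which at least 4 genes had a mean of 10 CPM, the fold between the highest and lowest such gene was largest here, 1379, followed by 931 for Mir379 to Mir3072. Its low end is Mir450-1, whose shared reads are not counted, so this rank rests on an uncertain gene. The rank also depends on the cutoff, since genes with a mean below 10 CPM were left out of the fold. That kept 29 of the 34 genes of Mir379 to Mir3072 and 11 of the 13 of Mir770 to Mir432, but all 7 members. The rank without the cutoff was not examined. Mir322 gave 70.1% of its group's summed mean, against 23.8% for the leading gene of the Mir379 to Mir3072 group and 56.7% for Mir17 in its group.

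**Figure D5:**
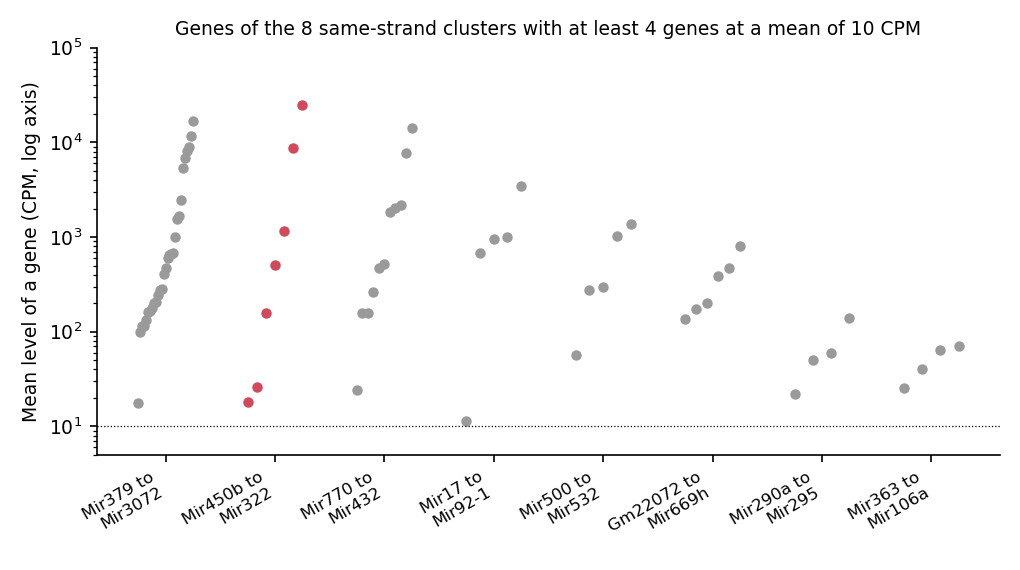
Mean level in CPM (log axis) of each gene whose mean reached 10 CPM (dotted line) in the 8 same-strand groups with 4 or more such genes, ordered by summed level. Red points are the members, which span 1379-fold, and grey points are genes of the other groups.

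In 2 of these 8 groups every such gene had more CPM in pup 2, the present cluster and the miR-106a to miR-363 cluster. Upper-quartile scaling, however, put Mir542 of the former and 2 of the 4 such genes of the latter lower in pup 2. In 1 other group, Mir290a to Mir295, all 4 such genes had less CPM in pup 2 (median log2 ratio -0.45, Mir291a only -0.01). The single genes nearest to Mir322 in level over both libraries, by the distance of log2(CPM + 1), were Mir26b with 25231 and 27871 CPM, Mir22 with 31934 and 32183 CPM, and Mir335 with 31202 and 36000.4 CPM. With 2 libraries this likeness is one of level only. Nearest to the summed cluster were Mir335, Mir99a with 28721 and 40203 CPM, and Mir10b with 33671 and 35221 CPM.

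Markers of other cell types also differed between the pups, and their part in the difference of the cluster was not tested. For the counts below, 58.1% of the 284 genes whose mean reached 10 CPM were higher in pup 2, or 41.9% under upper-quartile scaling. The sum of the striated muscle list was 87.5 CPM for pup 1 and 423 CPM for pup 2, with 5 of 9 measured genes higher in pup 2, 1 lower and 3 at 0 in both (Mir1a-1, Mir133a-1 and Mir133a-2). Nearly all of this sum was Mir206, a skeletal muscle miRNA, with 82.2 and 411 CPM. The 5 other genes with a count had at most 3 counts in pup 1 and 12 in pup 2, whose library was the deeper. The epithelial list summed to 947 and 1309 CPM, with 6 of 7 genes higher, or 7 with TMM scaling. The exception on the CPM scale was Mir203, the most abundant gene of the list, with 710 and 667 CPM. The smooth muscle genes Mir143 and Mir145a were both higher in pup 2, with a sum of 15116 and 19776 CPM, and the endothelial Mir126a had 81621 and 102288 CPM. The neuroendocrine list had 39765 and 33410.0 CPM, with 2 of 4 genes higher, and the erythroid list had 339 and 337 CPM. The hepatocyte Mir122 had 2979 and 4081 CPM, and the myeloid Mir223 had 704 and 883 CPM. The tables hold only miRNA genes, so the steroid enzymes and chromaffin cell proteins that define the adrenal could not be examined.

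On the opposite strand the 7 members had 1 count in pup 1, from Mir322, and none in pup 2, so their reads came from the annotated strand. Library depth differed by 2.94-fold between the pups, and multi-mapped reads, which hold the uncounted reads of miR-450a-5p, were 34.9% of the reads in pup 1 and 32.2% in pup 2.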

How the data were processed

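Small RNA from the adrenals of 2 pups was sequenced, with 1 library per pup. The files deposited by the authors hold unscaled counts of reads for each miRNA gene. Per the notes among the deposited files, mm10 and GENCODE M4 were used. The aligner is not given in the sources used here. Same-strand counts were taken, and the 4 rows that name no gene were left out of library sizes, which left 50.4% of all reads for pup 1 and 52.7% for pup 2. Symbols and positions came from GENCODE M21, which matched 1894 of 1973 identifiers, and the 79 others held 0 counts. Sequences came from RefSeq on GRCm38.p6.

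CPM, ratios, exact Clopper-Pearson shares and exact conditional Poisson intervals at 95% were computed with Python 3.11.15 and SciPy 1.17.1. Of these, only the ratios and their intervals were tested on simulated data, which held Poisson counting error alone. Log2 ratios used a prior of 1 CPM and genes whose mean reached 10 CPM. With a single group no p-value was computed. Alternatives used edgeR 4.0.16 (TMM, upper quartile), DESeq2 1.42.0 size factors, another denominator, column, prior or filter, and each pup alone.

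Members, lists and tests were chosen with earlier results of these data known. Genes were named by rule: the members, up to 6 seed partners by mean level, the miR-106a to miR-363 genes, the 3 genes nearest in level to Mir322 and to the summed cluster, and up to 5 same-strand clusters by total. Others named, such as Mir98, Mir652 and Mir6966, were chosen after their values were seen.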

Additional observations from a re-analysis of the deposited data

How the results depend on the processing

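With 2 libraries, values describe these pups only, and Mir450-1 and Mir450-2 rest on few counts and on uniquely placed reads. Over all reads of the tables, the share of the cluster was 1.82% and each member's CPM was lower because of the larger denominator. With each pup alone, the share of the cluster ran from 3.17% to 3.89%. The summed ratio of pup 2 to pup 1 was 1.32 with TMM, 1.26 with DESeq2 size factors, 1.09 with upper-quartile scaling and 1.29 over all reads, always above 1. Under upper-quartile scaling the log2 ratio of Mir542 turned to -0.063. The number of members past 2-fold was 1, and it was 0 over all reads, 0 with a prior of 5 CPM and 0 among genes whose mean reached 100 CPM; in the first and last of these settings Mir450-1 fell below the level required. Over all genes the number past 2-fold was 15, against 53 with no filter and 4 when the mean had to reach 100 CPM. With each pup alone, the share of Mir322 in the cluster ran from 68.3% to 72.3% and in its seed group from 79.6% to 81.5%. Of the main values under an alternative, 36 kept within the spread, interval or 1.5-fold range of the value reported, and the 10 that did not are given above. No paired analysis was possible because the series has a single group. Ratios without a pup could not be formed.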
